A study of Mus musculus with 4 samples.

Results

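The genes described here encode the proteins of the cytosolic ribosome in mouse CD8 T cells. Members were all probes that a RefSeq accession tied to a symbol beginning with Rpl or Rps and a digit, or to Rplp0, Rplp1, Rplp2 or Rpsa. The Rps6k kinases, Rps19bp1 and symbols ending in -ps were left out. This gave 151 of 56605 probes and 88 of 22911 named genes. Of the 88 genes, 77 are the canonical genes of ribosomal proteins, 46 for the large and 31 for the small subunit, and 11 are paralogs or retrotransposed copies of them. All 77 canonical members and 9 of the 11 paralogs were well above background on all 4 arrays. The paralog genes Rpl3l and Rpl10l were not well above background on any array, so 86 genes were measured.

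CD8 T cells were sorted by flow cytometry from untreated PD-1-/- C57BL/6 mice aged 1 to 3 months, with spleen and lymph node as the source. All 4 groups share the deletion of PD-1, the coinhibitory receptor. They were defined by CD44, which marks antigen-experienced cells, and CD62L, a lymph node homing receptor. P1 (CD44low CD62Lhigh) has a naive phenotype, P2 (CD44high CD62Lhigh) a central memory phenotype and P3 (CD44high CD62Llow) an effector or effector memory phenotype. P4 (CD44low CD62Llow) is the population that the study's title names. The sources used here do not give the number of mice in a sort or whether mice were pooled. With a single array for each subset on a shared slide, differences carry no replicate check, none was tested, and position on the slide cannot be told apart from subset. The 6 comparisons share arrays with each other.

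Ribosomal proteins and ribosomal RNA form the small subunit, which decodes messenger RNA, and the large subunit, which joins amino acids. Most of the proteins are needed in equal amounts, and their genes are transcribed at high levels in nearly every cell. Their messenger RNAs begin with a terminal oligopyrimidine (TOP) tract, an unbroken run of C and T letters in the DNA. Through this tract the kinase mTOR and the RNA-binding protein LARP1 control how the messages are translated and kept. T cells leaving the naive state raise ribosome production as they grow and divide.

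Promoter sequences are shown for canonical members and paralogs whose values are described below, so that the TOP tract can be seen. RefSeq promoter entries (build GRCm38.p6) matched 57 of the 77 canonical members and 10 of the 11 paralogs. Each line gives 60 bases, 5′ to 3′ on the strand of the gene, from 40 bases before the annotated start to 20 bases from the start on. Capitals mark the longest unbroken run of C and T.
Rps10 (chr17:27635225-27635284, minus strand): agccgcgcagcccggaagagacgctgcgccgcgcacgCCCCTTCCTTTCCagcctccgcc
Rpl15 (chr14:18270967-18271026, minus strand): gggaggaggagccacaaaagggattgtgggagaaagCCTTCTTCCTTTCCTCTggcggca
Rplp2 (chr7:141447611-141447670, plus strand): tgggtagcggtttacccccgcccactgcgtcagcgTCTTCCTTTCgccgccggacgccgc
Rpl22l1 (chr3:28805468-28805527, plus strand): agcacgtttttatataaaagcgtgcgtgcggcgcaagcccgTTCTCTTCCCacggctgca
Rps27l (chr9:66946046-66946105, plus strand): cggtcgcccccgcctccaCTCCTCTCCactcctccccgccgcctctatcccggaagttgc
Rpl39l (chr16:10170188-10170247, plus strand): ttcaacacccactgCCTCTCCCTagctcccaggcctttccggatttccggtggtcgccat
Rpl7l1 (chr17:46782637-46782696, minus strand): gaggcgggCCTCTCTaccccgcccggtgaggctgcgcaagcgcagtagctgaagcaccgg

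In Rps10, Rpl15 and Rplp2 the run spans the annotated start and is 13, 17 and 10 bases long, and in Rpl22l1 a run of 10 bases begins just after it. In Rps27l, Rpl39l and Rpl7l1 the longest run of these 60 bases ends before the start and is 9, 9 and 7 bases long, and Rps27l has a further run of equal length closer to the start. A run of at least 8 bases within 30 bases either side of an annotated start was found in 32 of 57 canonical members (56.1%), in 5 of 10 paralogs and in 25.8% of all 27025 genes with an entry. CTTCCG, the core letters bound by ETS factors, was found on either strand of the 300-base window in 40 of the 57 canonical members (70.2%), in 3 of the 10 paralogs and in 18.8% of all genes with an entry. AAGATGG, letters within the site of the factor YY1, was found on either strand in 9 canonical members (15.8%) and in 7.28% of all genes. These matches describe letters and do not show binding. No binding was measured in these cells.

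The level of a gene is the log2 processed signal of its probe minus the 75th percentile of the array, so a gene at 0 is as bright as that percentile. A gene with several probes is given by the probe with the highest mean. The 75th percentile lay at 481, 480, 799 and 453 signal units in P1 to P4, and between 27827 and 30811 probes were well above background. No spot was saturated. Of the member probes, 60 were printed in 10 spots each, and the SD among repeated spots, pooled over probes and arrays, was 0.060 (log2). Spot noise alone thus gives a difference between arrays a 95% half-width of 0.17 for a probe printed once and of 0.053 for a probe printed 10 times. These values leave out variation between mice, sorts and labelling reactions.

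Canonical ribosomal protein genes had nearly the same level in P1 and P2, a lower level in P4 and the lowest in P3 when set against the 75th percentile of each array, whereas with no scaling between arrays they were lowest in P4. The median level of the 77 genes was 8.0, 7.98, 7.21 and 7.73 in P1 to P4. P3 was the lowest of the 4 arrays for all 77 genes, P4 was the next lowest for 76 of them, and P1 was the highest for 56 and P2 for 21. The medians of the 235 other bright genes (no members, mean level of 6 or more) had the same order. They were 6.75, 6.72, 6.36 and 6.59 in P1 to P4. The order of single genes was not counted outside the members. Of the 136 probes of canonical members that were above background on every array, all 136 were lowest in P3, and 132 were lowest in P3 and next lowest in P4. In these bulk samples, a lower level cannot be divided into fewer cells that make the message and less message per cell.

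**Figure D1:**
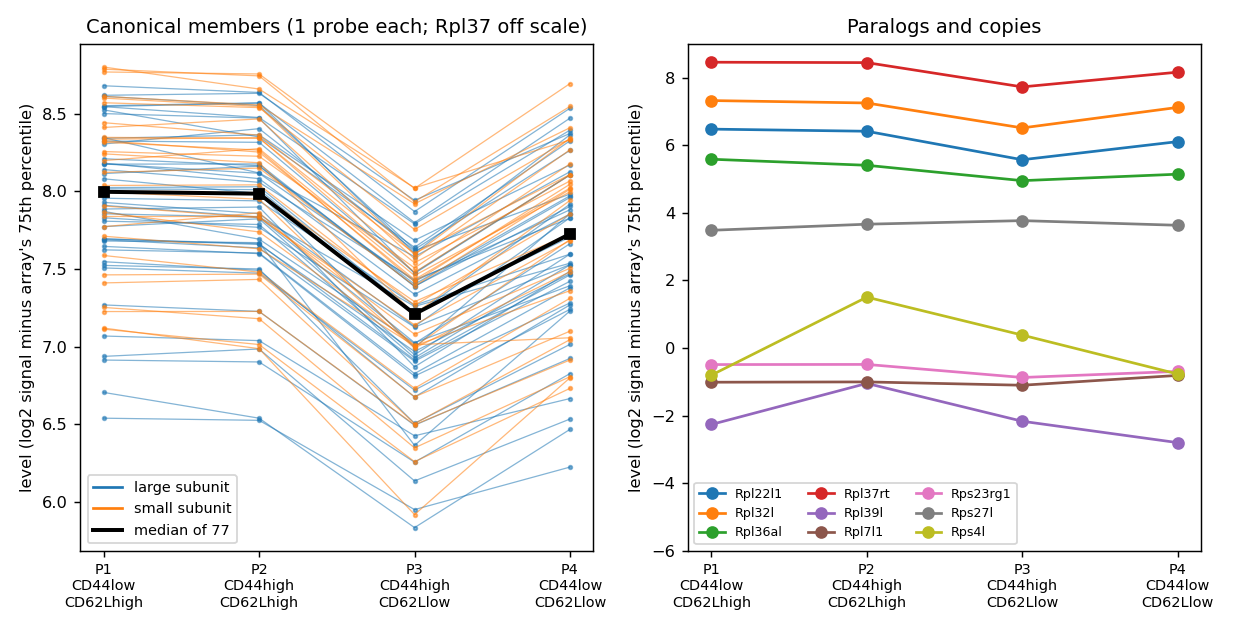
Levels of ribosomal protein genes on the 4 arrays, as log2 processed signal minus the 75th percentile of the array, with 1 line per gene. Left, canonical genes by subunit with their median (black squares), which was 8.0, 7.98, 7.21 and 7.73 in P1 to P4, an order of P3 and P4 that turned round with no scaling between arrays. Rpl37 lies below the axis. Right, the 9 measured paralogs, of which Rps4l and Rpl39l peaked in P2.

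The order of P3 and P4 against P1 rests on the scale. The processed signal as deposited, with no scaling between arrays, had medians over the members of 115550, 111549, 109892 and 89746 in P1 to P4. Unscaled, the members were thus about as bright on the P3 array as on the P1 array, while the median difference of all measured genes for P3 minus P1 moved from -0.11 to 0.62. As a share of the signal summed over all probes, which is itself a scaling to each array's total, the 151 member probes took 12.7%, 12.7%, 9.66% and 11.7% in P1 to P4.

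P3 was set against P1 to compare cells of effector memory phenotype with cells of naive phenotype. Canonical members had a median difference of -0.80 (interquartile range -0.87 to -0.75), so that the median member was 1.75-fold lower in P3. All 77 were lower, from -1.31 to -0.59, whereas the median over all 14089 measured genes was -0.11 and 58.2% of these were lower. At least 1.3-fold lower were 82 of the 86 measured members, beside 30.5% of all measured genes. At least 1.5-fold lower were 81 of the 86 (background 18.9%), and at least 2-fold lower were 9 (background 7.11%). Among the 235 other bright genes (no members, mean level of 6 or more), 202 lay below 0 with a median of -0.50. Of these 235, 136 were at least 1.3-fold lower, 101 at least 1.5-fold lower and 14 at least 2-fold lower. Among members only Rps4l was at least 2-fold higher, where the background was 12.4%. The median for canonical members was -0.42 when arrays were centred on those other bright genes, -0.09 under quantile normalization and -0.09 in the authors' processed values. It remained below 0 under each of the 7 scalings tried, but under quantile normalization 16 of the 77 genes were higher in P3.

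Both subunits had similar P3 minus P1 differences, with a median of -0.80 over the 46 large subunit genes and -0.82 over the 31 small subunit genes. For the 59 probes of canonical members with 10 spots, every P3 spot lay below every P1 spot in all 59. Spots of an array share its scaling, and this count was not made for probes of other genes. Summed levels of markers of other cell types were also higher on the P3 array. Which cells made these transcripts was not tested and cannot be told with a single array for each subset. All 9 markers of dendritic cells and class II presentation were above background in P3, against 3, 7 and 7 in P1, P2 and P4. Their summed linear level, relative to the 75th percentile, was 217 in P3 against 1.99, 7.03 and 7.59. The 8 macrophage and monocyte markers summed to 17.5 in P3 and to 0.794, 1.08 and 0.861 in P1, P2 and P4, with all 8 above background in P3 and Adgre1, Lyz2 and C1qa not so in the other 3. The 6 B cell markers summed to 7.94 in P3 and to 5.56, 5.01 and 4.75 elsewhere, and Pax5 was not above background on any array. The 4 erythroid markers summed to 4.99 in P3 and to 0.144, 0.282 and 0.373, with Alas2 not above background on any array. The 7 T cell markers, all above background on all arrays, summed to 853, 749, 648 and 745 in P1 to P4. Cd4, a marker of the other T cell lineage, stood at 0.760, 0.767, 1.17 and 0.762 on the same linear scale. The 4 proliferation markers summed to 1.88, 5.09, 20.1 and 3.51. Any part of other cells in the lower P3 level was not tested.

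Among the 9 canonical members at least 2-fold lower in P3 than in P1 were Rpl8, Rpl13, Rpl15, Rpl23, Rpl36a, Rpl37 and Rps29. Rpl36a, a large subunit protein encoded on the X chromosome, had levels of 7.68, 7.67, 6.37 and 7.23 in P1 to P4. Its P3 minus P1 difference of -1.31 (95% half-width 0.04 from 10 spots) was the lowest of all canonical members. P1 and P2 were alike in this gene, P4 was between, and P3 stood lowest. Its other probes gave -1.17 and -0.73 for P3 minus P1, and for P4 minus P1 they differed in sign, at -0.63 and 0.09 against -0.45. The first Rpl36a probe had a spot in a locally bright area, a place where neighbouring spots also stood above the other arrays, in P2 and P4. Rpl8, a large subunit protein near the peptidyl transferase centre, stood at 8.50, 8.47, 7.47 and 8.10 (difference -1.03, half-width 0.05), and it had a single probe. For both genes P3 was the lowest array and P4 the next. Rpl36a remained lower in P3 than P1 under quantile normalization, at -0.67, against a median of -0.09 over canonical members.

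Second probes of several of these genes were not past 2-fold. Rpl13 was at -1.09 by its brightest probe and at -0.96 and -0.70 by the others. Rpl15 was at -1.02 and -0.78, and Rpl23 at -1.01 and -0.73. Rps29 was at -1.01, -0.81 and -0.76. The probe of Rpl37, at levels of -3.35, -3.52, -4.40 and -3.53, was dim, below the 75th percentile on every array, and it was printed in 1 spot, with a difference of -1.04. Over the 45 genes with several measured probes, the probes never differed in sign for P3 minus P1, and the spread between the highest and lowest probe of a gene had a median of 0.12.

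P4 and P1 share low CD44 and differ in CD62L. Canonical members were lower in P4 by a median of 0.27 on the log2 scale (-0.27, interquartile range -0.33 to -0.21), which is 1.21-fold. All 77 lay below 0, between -0.81 and -0.07, while the median of all 13160 measured genes was -0.06. Below 0 were also 57.9% of all measured genes and 188 of the 235 other bright genes, whose median was -0.16. At least 1.3-fold lower were 13 of 86 members, beside 14.8% of all genes, and 0 were at least 1.3-fold higher (background 13.6%). The share past that size was thus close to the background. At least 1.5-fold lower was 1 member, Rps20 (background 6.25%), and 0 members were 2-fold apart in either direction (backgrounds 5.46% higher and 1.75% lower). The 77 differences were small and close together, with an SD among genes of 0.12 against 0.71 over all measured genes and 0.45 over other bright genes. Lists described below were nearly as close, with 0.16 (elongation factors and other TOP genes), 0.18 (mitochondrial ribosomal proteins) and 0.21 (ribosome biogenesis). The canonical median was -0.11 when arrays were centred on other bright genes, -0.05 under quantile normalization and -0.04 in the authors' processed values. In the authors' values 22 of the 77 were higher in P4.

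**Figure D2:**
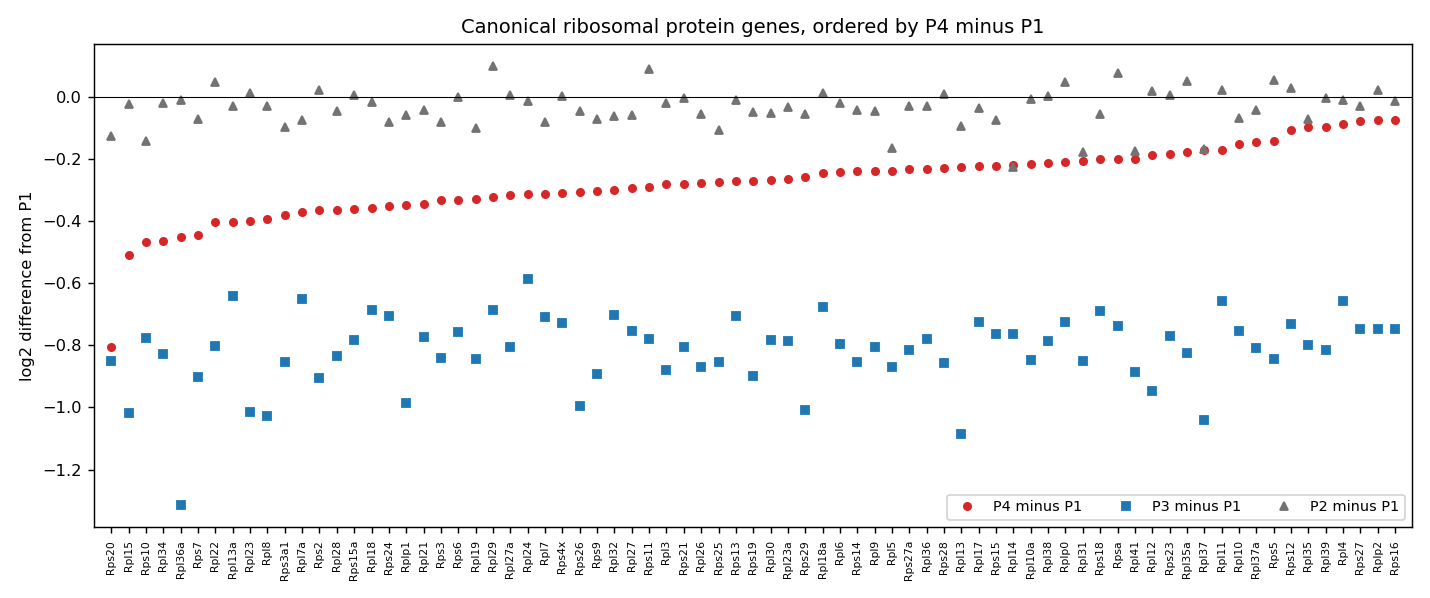
Log2 difference of 75 of the 77 canonical ribosomal protein genes from P1, for P4 (red circles), P3 (blue squares) and P2 (grey triangles), with genes ordered by P4 minus P1 on the horizontal axis. With this scaling all red and blue points lie below 0, while under quantile normalization 16 of the 77 genes lay above 0 for P3 and 21 for P4, and Rps20 stands apart at the left, where its P4 value (-0.81) is close to its P3 value (-0.85).

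Single spots gave the same order in most probes. With the 75th percentile, every P4 spot lay below every P1 spot in 55 of the 59 probes with 10 spots. Every P3 spot lay below every P4 spot in 57. Spots of an array share its scaling, and with none the canonical median for P4 minus P3 was -0.27. These counts were not made for probes of other genes. Probes of a gene differed in sign for P4 minus P1 in 1 of 45 genes, Rpl36a.

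Rps20, a small subunit protein, departed most from its fellows in P4. Its levels were 7.86, 7.74, 7.01 and 7.06 in P1 to P4. P3 and P4 were thus alike and low, where other canonical members stood between P1 and P3 in P4. Its P4 minus P1 difference was -0.81, which is 0.54 below the canonical median, and it was 0.45 and 0.50 below the median for P4 minus P2 and P4 minus P3. Relative to the canonical median the P4 minus P1 value was also -0.49 under quantile normalization, -0.66 after normexp background correction and -0.50 in the authors' processed values. A single probe printed in a single spot read this gene, and that spot did not lie in a locally bright area of any array.

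Next lowest in P4 against P1 were Rpl15 (-0.51), Rps10 (-0.47), Rpl34 (-0.46) and Rpl36a (-0.45). Rps10, a small subunit protein, had levels of 8.80, 8.66, 8.02 and 8.33, and its second probe, with 10 spots, gave -0.56. Rpl34, a large subunit protein read by 1 probe with 10 spots, had levels of 7.86, 7.83, 7.03 and 7.39 and a difference with a half-width of 0.05. Rpl15 had levels of 7.52, 7.50, 6.51 and 7.02, and its second probe, with 10 spots, gave a smaller -0.28. In each of these genes P1 was higher than P4 and P4 higher than P3. Nearest to P1 were Rps16 (-0.07), Rplp2 (-0.07), Rps27 (-0.08), Rpl4 (-0.09) and Rpl39 (-0.10). These are within the half-width of 0.17 for a single spot, and Rps27, with 10 spots, had a half-width of 0.08. Rpl39 differs between probes, with -0.34, -0.36, -0.47 and -0.45 from its other 4.

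P4 was set against P2, subsets that differ in both markers. Canonical members had a median of -0.23 (interquartile range -0.30 to -0.19) against 0.01 over all 13125 measured genes, and 76 of 77 were lower in P4. Lower in P4 were also 49.2% of all measured genes and 164 of the 235 other bright genes (median -0.11). At least 1.3-fold lower were 11 of 86 members, where the background was 13.9%. At least 2-fold lower were 2 (background 3.43%), both paralogs, Rps4l and Rpl39l. The lowest canonical members were Rps20 (-0.68), Rpl15 (-0.48), Rpl22 (-0.45), Rpl34 (-0.44) and Rpl36a (-0.44). The highest were Rpl14 (0.01), Rpl37 (-0.0046), Rpl41 (-0.02), Rpl35 (-0.03) and Rpl31 (-0.03), differences smaller than the noise of single spots. In quantile-normalized values the canonical median was -0.04.

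P4 was set against P3 to compare CD62Llow cells of low and high CD44. Canonical members were higher in P4 by a median of 0.55 (interquartile range 0.46 to 0.63), or 1.46-fold, and all 77 lay above 0, while with no scaling between arrays the median was -0.27 and 73 were lower. The median of all 13990 measured genes was 0.04, and -0.78 with no scaling. With the 75th percentile, 7462 of these genes and 186 of the 235 other bright genes (median 0.31) lay above 0. At least 1.3-fold higher were 71 of 86 members, beside 21.2% of all genes, and at least 1.5-fold higher were 33 (background 11.9%). Past these 2 sizes were also 96 and 39 of the 235 other bright genes, and 30 and 24 of 35 ribosome biogenesis genes. At least 2-fold higher were 0 members (background 4.15%), and 1 member was at least 2-fold lower, Rps4l (background 8.92%). Rps4l and Rpl39l were the 2 members at least 1.5-fold lower (background 14.7%). Among the largest differences were those of Rpl37 (0.87), Rpl36a (0.86), Rpl13 (0.86) and Rpl12 (0.76). The smallest were those of Rps20 (0.05), Rpl13a (0.24), Rpl24 (0.27), Rpl7a (0.28) and Rps10 (0.31). The same markers of antigen-presenting cells that were high in P3 against P1 were high in P3 against P4, and their part was not tested.

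P2 was set against P1, the CD62Lhigh subsets. Canonical members had a median of -0.03 with an SD of 0.06 among the 77 genes, and 56 were lower and 21 higher. Of all 12954 measured genes, 60.3% were lower. Probes of a gene differed in sign for this pair in 18 of the 45 genes with several measured probes. Their range, from -0.23 in Rpl14 to 0.10 in Rpl29, went past the half-width in both genes (0.17 for the single spot of Rpl14, 0.033 for the 10 spots of Rpl29). No canonical member was 1.3-fold apart, where the backgrounds were 11.9% higher and 11.8% lower. Nor was any of 35 ribosome biogenesis genes or 78 mitochondrial ribosomal protein genes. Of the 235 other bright genes, 6 were 1.3-fold higher and 10 lower. The only members at least 2-fold higher in P2 were the paralogs Rps4l and Rpl39l, 2 of 86, beside a background of 4.76%, and 0 were at least 2-fold lower (background 2.53%). P3 minus P2 had a canonical median of -0.77, against -0.094 under quantile normalization, -0.094 in the authors' processed values and -0.034 with no scaling, where 27 of the 77 lay above 0. With the 75th percentile, 79 of 86 members were at least 1.5-fold lower in P3 (background 15.1%) and 5 at least 2-fold lower (background 5.69%), beside 76 and 7 of the 235 other bright genes. P3 minus P2 and P3 minus P1 use the same P3 array.

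**Figure D3:**
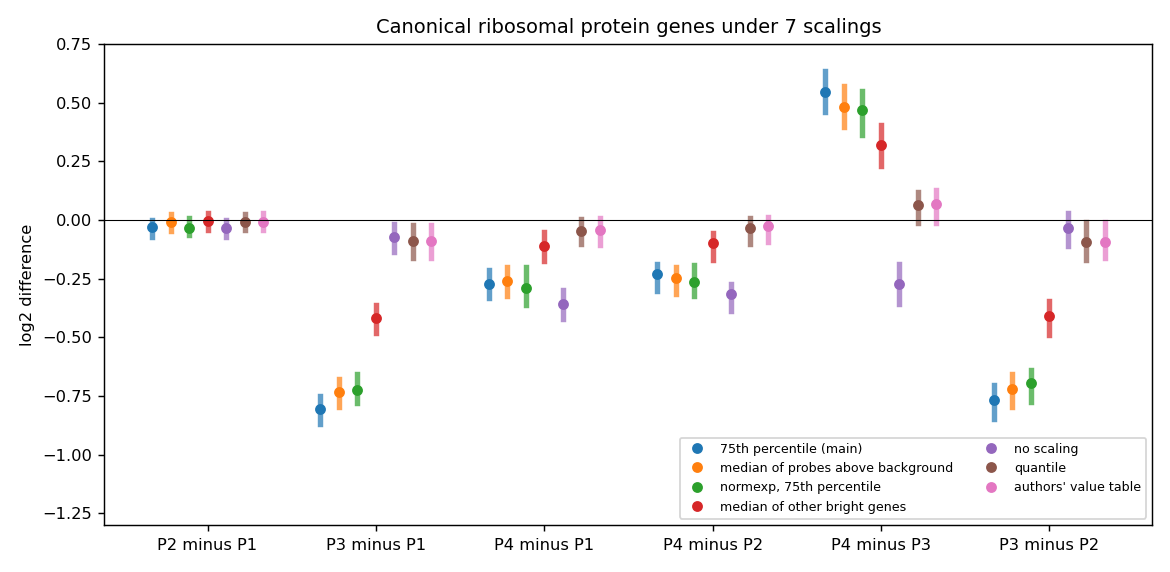
Median log2 difference (points) and interquartile range (bars) of the 77 canonical ribosomal protein genes for the 6 pairs of arrays under 7 scalings. For P3 minus P1 the median runs from -0.80 with the 75th percentile to -0.07 with no scaling, and for P4 minus P3 it is 0.55 with the 75th percentile and -0.27 with no scaling.

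Members with particular roles are described next. The stalk of the large subunit, which recruits elongation factors, is built from Rplp0, Rplp1 and Rplp2. Rplp0, often used as a reference gene, had levels of 8.11, 8.16, 7.39 and 7.90 in P1 to P4. Rplp1 had levels of 8.61, 8.55, 7.63 and 8.26, with a P4 minus P1 difference of -0.35 (half-width 0.04). Rplp2 had levels of 8.55, 8.57, 7.80 and 8.47. All 3 stalk genes were lowest in P3, and P4 differed from P1 by more than the spot noise in Rplp0 and Rplp1 and by less in Rplp2.

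Rpl5 and Rpl11 bind the small ribosomal RNA of the large subunit and, outside the ribosome, the p53 regulator MDM2. Rpl5 had levels of 6.71, 6.54, 5.84 and 6.47, and Rpl11 had levels of 8.34, 8.36, 7.68 and 8.17. Rpl13a, also known for binding certain inflammatory messages once released from the ribosome, had levels of 7.07, 7.04, 6.43 and 6.67. In all 3, P3 was lowest, and Rpl13a lay nearer to P3 in P4 than Rpl5 and Rpl11 did.

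Rps6, the substrate of the S6 kinases, had levels of 7.84, 7.84, 7.08 and 7.50 and differed by -0.33 for P4 minus P1 (half-width 0.09). Rps3, which forms part of the messenger RNA channel and has a described role with NF-kappaB, had levels of 8.44, 8.36, 7.60 and 8.11. Rpsa, also called the laminin receptor, had levels of 8.20, 8.27, 7.46 and 8.0. These small subunit genes followed the same order as the others. Rps14 (8.79, 8.74, 7.93 and 8.55) and Rps19 (8.32, 8.26, 7.42 and 8.05), both linked to human anaemias, did so too. Their P4 minus P1 differences were -0.24 and -0.27.

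Rpl22 is dispensable for the ribosome itself but needed for the development of alpha beta T cells, and Rpl22l1 is its paralog. Rpl22 had levels of 6.94, 6.99, 6.14 and 6.53, and Rpl22l1 had levels of 6.48, 6.42, 5.57 and 6.11. With this scaling the paralog and its parent had similar differences, with P4 minus P1 differences of -0.40 (half-width 0.07, 10 spots) and -0.37 and P3 minus P1 differences of -0.80 and -0.91. Under quantile normalization the P3 minus P1 values were -0.22 for Rpl22 and -0.50 for Rpl22l1.

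Some other paralogs had differences in the range of canonical members. Rpl37rt (8.46, 8.45, 7.73 and 8.17) and Rpl32l (7.32, 7.25, 6.52 and 7.12) had P3 minus P1 differences of -0.73 and -0.81. Both are near-copies of canonical genes, and their probes may read the parent message. Rpl36al, a retained copy of Rpl36a, had levels of 5.59, 5.41, 4.95 and 5.15, and its 2 probes gave P4 minus P1 differences of -0.44 and -0.64. Rps23rg1, a copy of Rps23, was at -0.49, -0.49, -0.87 and -0.69. The parents of the 2 unmeasured paralogs had levels of 7.81, 7.79, 6.93 and 7.53 (Rpl3) and of 8.54, 8.47, 7.79 and 8.39 (Rpl10).

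Rps27l, a paralog of Rps27 that p53 induces, ran the other way. Its levels were 3.48, 3.66, 3.77 and 3.63 in P1 to P4, so that P3 was its highest array and P1 its lowest. The P3 minus P1 difference was 0.29 by this probe and 0.41 by its second probe, against -0.75 for the parent Rps27 (8.26, 8.23, 7.51 and 8.18). It was also above 0 under quantile normalization (0.43), after normexp (0.38) and in the authors' processed values (0.43). Rpl7l1, a paralog of Rpl7 that acts in assembly of the large subunit, stood at -1.01, -1.0, -1.10 and -0.81, while Rpl7 stood at 8.14, 8.06, 7.43 and 7.83. Beside Rps27l (0.15), it was the only protein-coding member with a P4 minus P1 difference above 0, at 0.20, just over the half-width of single bright spots.

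Rps4l and Rpl39l varied most among all members. Rps4l, which RefSeq classes as a transcribed pseudogene related to Rps4x, had levels of -0.80, 1.51, 0.38 and -0.77 in P1 to P4. It was thus high in the CD44high subsets P2 and P3 and low in the CD44low subsets P1 and P4. P2 was 4.96-fold above P1 and 4.85-fold above P4, and P3 was 2.27-fold above P1. Its parent Rps4x, on the X chromosome, had levels of 7.23, 7.23, 6.50 and 6.91 and showed no such peak. Rps4l minus its value in P1 was 2.30 in P2 under quantile normalization, 2.07 after normexp and 2.33 in the authors' processed values.

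Rpl39l, a paralog of Rpl39 best known from male germ cells, had levels of -2.26, -1.05, -2.17 and -2.80 in P1 to P4. Only P2 stood out, 2.32-fold above P1 and 3.37-fold above P4. After normexp background correction P2 minus P1 was 0.85, which is no longer 2-fold. The parent Rpl39 did not share the peak (8.02, 8.01, 7.20 and 7.92). Rps4l and Rpl39l were each read by 1 probe in 1 spot an array, and neither spot lay in a locally bright area. They had no repeated spots, so their own spot noise was not measured.

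**Figure D4:**
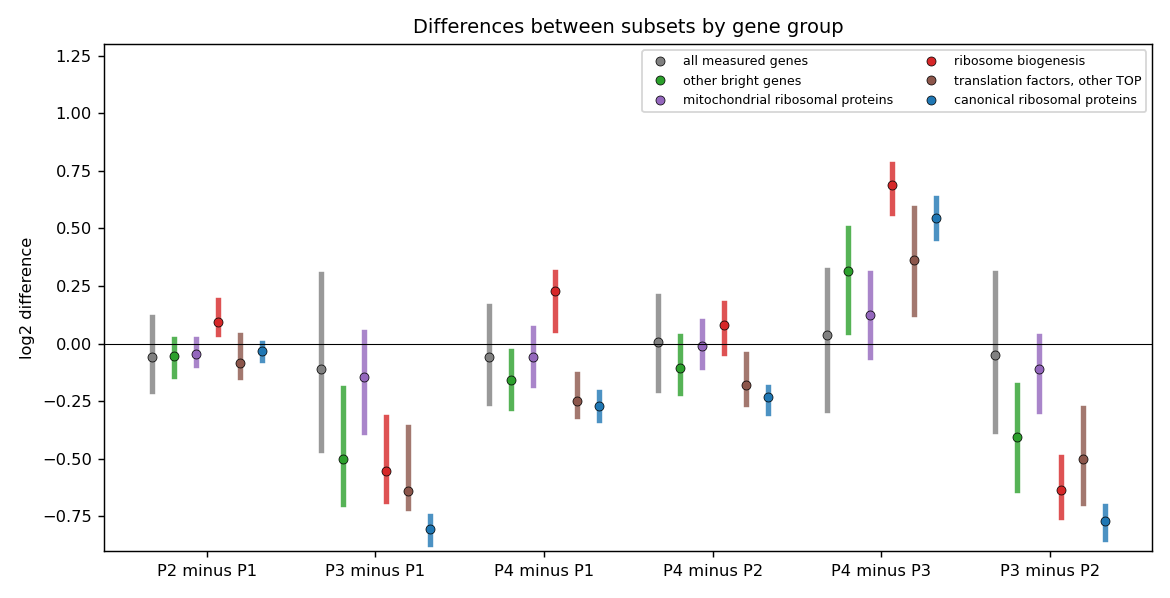
Median log2 difference (points) and interquartile range (bars) for 6 gene groups in the 6 pairs of arrays. In P4 minus P1, ribosome biogenesis genes have a median of 0.23 while canonical ribosomal protein genes have one of -0.27. In P3 minus P1 both are below 0 with this scaling, and biogenesis genes are at 0.18 with none.

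Other genes of translation were compared as a frame. Fau and Rack1 encode ribosomal proteins under other names, Fau as a fusion with a ubiquitin-like protein. Their P3 minus P1 differences were -0.67 and -0.77, and their P4 minus P1 differences were -0.28 and -0.11. Under quantile normalization Fau was at 0.025 for P3 minus P1 and Rack1 at 0.13 for P4 minus P1, so these signs changed with the scaling.

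Of 21 measured elongation factors and other TOP genes, 20 were below 0 for P3 minus P1 (median -0.64) and 20 for P4 minus P1 (median -0.25), while with no scaling the P3 minus P1 median was 0.091. Among them Eef1b2, an exchange factor for elongation, had levels of 7.57, 7.49, 6.69 and 7.31. Tpt1, a growth-linked TOP gene, had levels of 8.28, 8.40, 7.60 and 8.37, with P4 at the P2 level. Snhg1, the noncoding host of small nucleolar RNAs, was 2-fold lower in P3 than in P1 (-1.45), and it was the only gene of the list past 2-fold in that pair. Vim (0.45) was the only gene of the list above 0 for P3 minus P1. Pabpc1 (-0.08), Eif2s3x (-0.15) and Eif3f (-0.18) were the nearest below 0.

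The 78 mitochondrial ribosomal protein genes, whose products build a separate ribosome, had medians near those of all genes. For P3 minus P1 their median was -0.15 with 26 above and 52 below 0, and only Mrpl23 was 2-fold lower (-1.02). For P4 minus P1 the median was -0.06 and for P4 minus P3 it was 0.12. In these 2 comparisons 0 of the 78 were 2-fold apart. The sign of these medians changed with the scaling, with 0.58 for P3 minus P1 and -0.70 for P4 minus P3 when arrays were not scaled.

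Ribosome biogenesis genes process ribosomal RNA and assemble subunits. Of 35 measured genes, 29 were above 0 for P4 minus P1 (median 0.23). Above 0 were also 5543 of all 13160 measured genes, but 0 of 77 canonical members (21 under quantile normalization). For P2 minus P1, 28 of the 35 were above 0 (median 0.09), beside 5138 of all 12954 measured genes. The P4 minus P1 median of biogenesis genes was above 0 under each of the 7 scalings, from 0.14 with no scaling to 0.39 with centring on other bright genes. That of canonical members was below 0 under each. The difference between the lists was not tested. For P3 minus P1 they had a median of -0.55 with 34 of 35 below 0, and for P4 minus P3 one of 0.69 with all 35 above 0, but with no scaling these medians were 0.18 and -0.13. Past 2-fold for P4 minus P3 were Rrp9 (1.06) and the methyltransferase gene Fbl (1.03).

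Among 19 genes that regulate TOP messages or ribosomal protein transcription, Myc had levels of 3.54, 3.46, 2.11 and 3.28. It was lowest in P3, with a P3 minus P1 difference of -1.43, and was the only gene of this list 2-fold lower in that pair. Larp1 had levels of 5.34, 5.48, 4.63 and 5.01. Mxi1, which opposes Myc, had levels of 0.77, 0.15, 1.36 and 1.15, with P3 minus P2 at 1.20. The list as a whole had medians of -0.13 for both P3 minus P1 and P4 minus P1, close to those of all genes, and 0.61 and -0.21 with no scaling.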

How the data were processed

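Total RNA of 4 sorted CD8 T cell subsets was labelled with Cy3 and hybridised to 1 array each, per the labels' protocols. The authors' intensity values came from Agilent Feature Extraction 11.0.1.1, per the file headers: background-subtracted and detrended processed signal, not normalized between arrays. The authors' deposited value table holds log2 values of 26188 probes, among them 147 of the 151 member probes. Its columns share a median of 8.85 and correlate with the scanner values of their own arrays at r of 0.999 or more across probes, so it was read as log2, quantile normalised and not centred by gene. No source used here names the tool.

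Outlier spots (122 to 152 an array) were left out. Each array's 75th percentile (log2) was subtracted and repeated spots were averaged. Probes were named through RefSeq accessions (32994 of 56605 probes; assembly GRCm38.p6). A gene took its probe with the highest mean and counted as measured in a pair if either array had it well above background by the deposited flag. A dim value was set to its array's lowest well-above-background signal. Differences were counted at 2-fold, 1.5-fold and 1.3-fold without a test. Half-widths of 95% come from the standard error over repeated spots with the normal factor. In a locally bright area, 3 or more neighbouring spots (4 or more on the P3 array) within 32 position units were 2-fold above all other arrays.

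Genes named are those at least 2-fold apart, the 5 canonical members farthest from the list median on each side in each comparison with P4, the paralogs with their parents, chosen members of known role, and list genes past 2-fold. Some genes that this rule names are not reported here. The members and lists were chosen with earlier results of these data known. A few further list genes were picked after seeing values (Eef1b2, Tpt1, Pabpc1, Eif2s3x, Eif3f, Vim, Larp1). "Other bright genes" are 235 named genes, no members, with a mean level of 6 or more. Counting was checked on simulated data. Analyses used Python 3.11.15, numpy 2.4.6, pandas 2.3.3, scipy 1.17.1 and limma 3.58.1 (normexp on median signals, offset 50).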

Additional observations from a re-analysis of the deposited data

How the results depend on the processing

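Of 258 alternative values (medians, counts past 2-fold and counts past 1.3-fold), 205 stayed within the tolerance, 52 moved past it and 1 reversed. The tolerance was 0.085 (log2) for a median, which is the spot-noise SD of a difference between single spots, and 1.5 times for a count, so small medians such as that of P2 minus P1 could change several-fold within it. Medians over all measured members are given in the order P3 minus P1, P4 minus P1, P4 minus P2, P4 minus P3 and P3 minus P2. Quantile normalization gave -0.090, -0.050, -0.040, 0.063 and -0.10, and the authors' processed values gave -0.088, -0.045, -0.036, 0.065 and -0.096. Centring on other bright genes, chosen after seeing the data, gave -0.41, -0.11, -0.10, 0.31 and -0.41. With no scaling, also chosen after seeing the data, P3 minus P1 was -0.065, P4 minus P1 -0.36, P3 minus P2 -0.030 and P4 minus P3 reversed to -0.28. Normexp gave 0.45 for P4 minus P3. Quantile normalization left 8, 2, 3, 8 and 8 members at least 1.3-fold apart in these 5 comparisons.

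The 9 members 2-fold lower in P3 minus P1 became 1 under quantile normalization, 3 with arrays centred on probes above background, 2 after normexp, 17 with every probe counted, 81 at 1.5-fold, and 0 in the authors' processed values, with no scaling and with centring on other bright genes. The 5 lower in P3 minus P2 became 2 under quantile normalization and in the authors' values, 3 after normexp, for canonical members only and without probes in locally bright areas (added after seeing the data), 13 with every probe counted, 79 at 1.5-fold, and 0 with no scaling and with centring on other bright genes. After normexp 1 member was 2-fold higher in P2 minus P1 and 0 were lower in P4 minus P3. Over canonical members 0 were 2-fold higher in P2 minus P1 or P3 minus P1 or lower in P4 minus P2 or P4 minus P3. No scaling gave 2 higher in P3 minus P1 and 2 lower in P4 minus P3. At 1.5-fold, 1 was lower in P4 minus P1, and 33 were higher and 2 lower in P4 minus P3. The scalings alter the median by construction. Other causes were not tested. No paired analysis was possible because each subset has 1 array. The number of arrays limits the precision.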

Other observations

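The 3 probes of Rps24, a small subunit gene with several annotated transcripts, read differently. They stood at 7.71, 7.63, 7.01 and 7.36, at 5.39, 5.36, 4.69 and 5.26, and at 3.27, 2.88, 2.83 and 3.00 in P1 to P4. For P3 minus P2 they gave -0.62, -0.67 and -0.05. A dim probe of Rps15a stood at -2.72, -3.12, -4.21 and -3.55, with a P3 minus P1 difference of -1.49 against -0.78 and -0.74 for the gene's other probes. All of these dim or divergent probes were printed in 1 spot.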
